A study of Mus musculus with 469 samples.

Results

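The class I odorant receptor range is the set of genes in the count table whose symbols run from Olfr543 to Olfr705. It makes up 11.4% of the 1116 Olfr entries among 23308 gene entries, and the other 989 Olfr entries lie outside it. The rule uses gene numbers and no measured value, but it was set with earlier results of these data known. All of them lie on chromosome 7 and are protein-coding in RefSeq's annotation of GRCm38.p6; because the submitters' processing notes name mm9, only names and order were taken from that annotation. "Range gene" is used below for any of them.

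Odorant receptors are G protein-coupled receptors of olfactory sensory neurons, and a mature neuron typically transcribes 1 allele of 1 receptor gene. Mammalian receptors fall into an older class I, which lies in a single cluster and is known from water-living vertebrates, and a much larger class II spread over many chromosomes. In the mouse, neurons that choose class I receptors lie almost only in the dorsal zone of the epithelium, where Nqo1 and Acsm4 are transcribed. Ncam2 marks the ventral zones, and the transcription factor Bcl11b is known for a role in the choice between the classes.

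The study captured single cells of mouse olfactory epithelium with the Fluidigm C1 system, at 8 weeks of age in every group. The FVB Neurog1-eGFP strain gave Neurog1-eGFP+ progenitors, sorted from uninjured tissue (61 libraries) and at 5 days (51) and 14 days (26) after olfactory bulbectomy (OBX), the removal of the bulb to which the neurons project. The B6 OMP-eGFP strain gave OMP-eGFP+ cells at 14 days after bulbectomy (50) and engrafted cells after transplantation (89); the labels name neither the host nor the donor cells. F1 wildtype mice of B6;129SF1/J gave unsorted, uninjured reference cells in 2 runs of 96 libraries each. Both transgenes mark cells by a gene of 1 stage (Neurog1 in precursors, Omp in mature neurons), and strain goes with sort, so strain and sort cannot be told apart.

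Libraries were kept when at least 1000 genes reached a value of 1. This left 46, 48 and 25 cells in the Neurog1-eGFP+ groups (uninjured, 5 days and 14 days), 42 and 29 in the OMP-eGFP+ groups (14 days and engrafted), and 68 and 70 in the reference runs, with 13369 to 2186038 recovered fragments. Values are given as CPM, the gene's share of a library's summed signal per 1000000. A receptor was called found at a CPM of 50 or more, which is about 25 to 67 fragments at the groups' median depths. A receptor cell is a kept cell with at least 1 Olfr gene found, and its highest Olfr gene is its top receptor. The labels name no animal, so each group is 1 sample, no test was possible between groups, and the 95% Clopper-Pearson intervals cover counting error over cells only. In the reference, 9 libraries of run 1 stood apart with over 10000 genes each (the large libraries). There were 3 pairs of libraries with almost the same profile, 1 in the reference and 2 in Neurog1-eGFP+ cells at 5 days. Values without the large libraries, or with a pair counted once, stand beside the results they touch.

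The label "class I" held for most of the range but not for its upper end. By the MOR family names in RefSeq, where families 1 to 42 are class I, 3 range genes (Olfr596, Olfr652 and Olfr681) carry no MOR name, 12 (Olfr693 to Olfr705) belong to MOR283 or MOR260, which are class II families, and all others are class I. The coding sequences, taken as the longest open reading frame of the GENCODE M21 transcripts (GRCm38; all but 2 range genes matched), split the same way. The class I genes with a reading frame, with the unnamed ones counted among them, had a median identity of 58.2% to one another's class and 52.9% to class II genes outside the range, and their best class II match was at 54.5 to 57.7%. The 12 genes of MOR283 and MOR260 had 52.5% and 56.1%, with a best class II match of 73.6 to 86.3%. They contributed little here: 3 of them (Olfr693, Olfr701 and Olfr704) were found, 1 was on top in 1 cell, and they held 2.86% of the range's summed CPM. Outside the range, 11 genes of chromosome 7 carry a class I family name, among them Olfr33, Olfr66 and Olfr78; Olfr32 does not (MOR227).

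A short coding stretch shows the difference between the classes in letters. It lies at the end of the third transmembrane segment, at a conserved stretch of 6 codons, which the capitals mark. Codons 1, 2, 4 and 5 encode methionine, alanine, aspartate and arginine in every receptor shown, whereas codon 3 and codon 6 (tyrosine or phenylalanine) vary. The search over all genes also took glutamate at codon 4 and histidine or cysteine at codon 6. The receptors are those that stood on top in the most cells, with Olfr701 as the MOR283 gene that topped a cell.

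Olfr672: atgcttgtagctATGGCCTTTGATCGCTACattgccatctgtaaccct

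Olfr690: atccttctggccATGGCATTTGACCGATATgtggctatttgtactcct

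Olfr561: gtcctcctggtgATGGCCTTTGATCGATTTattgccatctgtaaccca

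Olfr666: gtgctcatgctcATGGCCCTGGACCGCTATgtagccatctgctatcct

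Olfr623: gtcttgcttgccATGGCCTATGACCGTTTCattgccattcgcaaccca

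Olfr701: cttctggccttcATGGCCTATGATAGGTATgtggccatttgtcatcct

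Over these 48 bases, 11 to 17 differ from Olfr672. The third of these codons differed between the classes: it was TTT or TTC (phenylalanine) in 52 of 85 class I range genes with the stretch (61.2%), and TAT or TAC (tyrosine) in 6 (7.06%). TAT or TAC stands there in 10 of 10 MOR283 and MOR260 genes and in 599 of 749 class II genes outside the range (80%). Olfr623 is 1 of the 6 class I exceptions.

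Class I receptors were common in the unsorted reference and rare in every sort. A range gene was on top in 35 reference receptor cells, or 28% (95% interval 20.3 to 36.7%), and in 7 sorted receptor cells, or 4.4% (1.79 to 8.86%). The sorted share lies below the 11.4% of Olfr entries that the range holds, and the reference share above it. Because neurons choose receptor genes unevenly, that entry share is a yardstick of gene number and not an expected value.

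**Figure D1:**
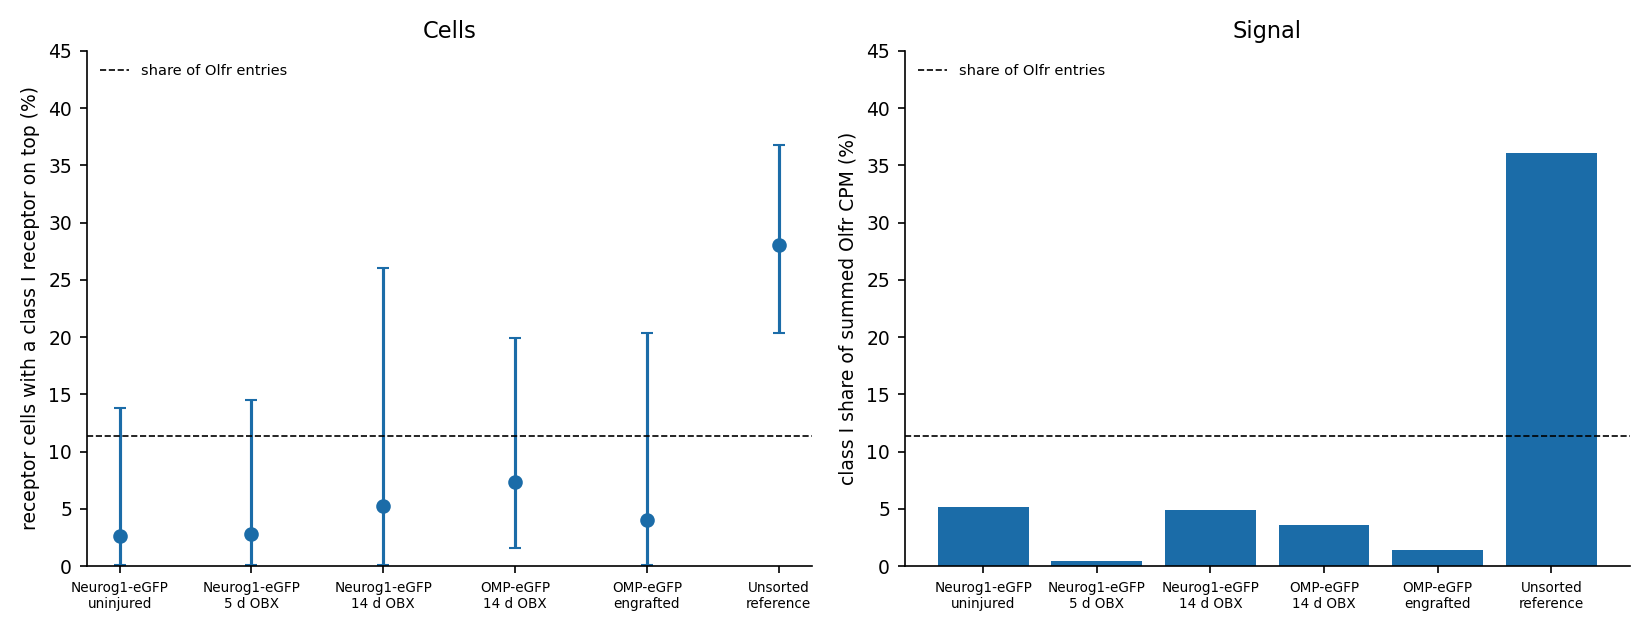
Left, percentage of receptor cells whose top receptor is a range gene, with exact 95% intervals over cells, in each group; right, the range's percentage of summed Olfr CPM. The dashed line is the range's 11.4% of Olfr entries, and only the reference, at 28% of cells and 36% of signal, lies above it in both panels.

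Among the Neurog1-eGFP+ groups, 1 of 38 receptor cells was topped by a range gene in uninjured tissue (2.63%, 0.0666 to 13.8%). At 5 days after bulbectomy it was 1 of 36 (2.78%, 0.0703 to 14.5%), and at 14 days 1 of 19 (5.26%, 0.133 to 26%). In OMP-eGFP+ cells it was 3 of 41 at 14 days after bulbectomy (7.32%, 1.54 to 19.9%) and 1 of 25 engrafted cells (4%, 0.101 to 20.4%). The intervals of the 5 sorts overlap broadly. Each sort is 1 sample, so these shares are not a comparison of injury, stage or engraftment.

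Summed signal gave the same order of reference over sorts. The range held 36% of the reference's Olfr CPM (mean 2480 of 6885 CPM per cell). Its share was 5.20% in uninjured Neurog1-eGFP+ cells (mean 234.8 CPM), 0.444% at 5 days (26.3 CPM) and 4.91% at 14 days (241.7 CPM). It was 3.55% in OMP-eGFP+ cells at 14 days and 1.37% in engrafted cells (129.0 CPM). These sorted shares each rest on a cell or so: the highest cell held 97.8% of the group's range CPM in uninjured Neurog1-eGFP+ cells and 81.4%, 66.8%, 68.5% and 92% in the other sorts, in the order above, against 28.4% in the reference. Without that cell the uninjured Neurog1-eGFP+ share was 0.119%, and the others were 0.0836%, 1.69%, 1.15% and 0.111%; the reference stayed at 28.7%.

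Class II receptors did not follow the same order. The genes from Olfr1000 to Olfr1300, a class II range, held 13.4%, 9.31% and 25.5% of Olfr CPM in the Neurog1-eGFP+ groups, 44.1% and 37.2% in the OMP-eGFP+ groups and 22.6% in the reference. As a log2 ratio of mean CPM + 1, uninjured Neurog1-eGFP+ cells over the reference gave -3.40 for the summed range and -0.04 for the other Olfr genes. OMP-eGFP+ cells at 14 days over the reference gave -2.60 and 1.33. Within the sorts, 5 days over uninjured was -3.11 for the range and 0.46 for the others, 14 days over uninjured 0.04 and 0.13, OMP-eGFP+ over Neurog1-eGFP+ at 14 days 0.75 and 1.24, and engrafted over 14 days -1.65 and -0.25. These comparisons share groups, and the low range sums move with the single cells named above.

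Gene by gene, the range was found more widely in the reference and the other receptors more widely in the sorts. In the reference 45 range genes (35.4%) were found in at least 1 cell, and in the pooled sorts 14 (11%). Of the other Olfr genes 15.4% were found in the reference and 23.3% in the sorts, and of all genes 53.6% and 55.8%. Counts of range genes with a higher or lower mean per group are not given, because a range gene that passes a limit on the mean through 1 group alone has its direction fixed by that limit.

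**Figure D2:**
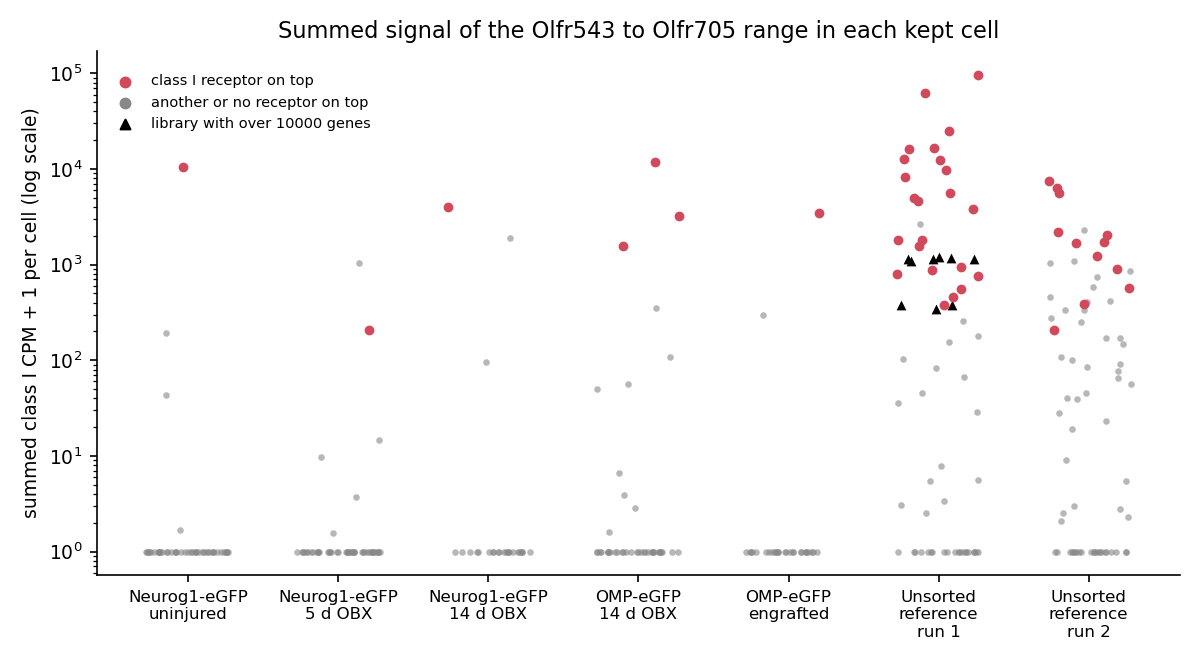
Summed CPM + 1 of the range genes in each kept cell, on a log scale, with the reference split by run. Red points are cells with a range gene on top (7 in the sorts, 23 in run 1 and 12 in run 2), grey points other cells and black triangles the 9 libraries with over 10000 genes; most sorted cells sit at 0, drawn as 1.

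Cell by cell, most sorted cells had no range signal at all. The summed range CPM was exactly 0 in 42 of 46 uninjured Neurog1-eGFP+ cells, 42 of 48 at 5 days, 22 of 25 at 14 days, 31 of 42 OMP-eGFP+ cells and 27 of 29 engrafted cells. In the reference it was 0 in 42 cells of the 68 and 70 of the runs, with a median of 83.2 CPM (54.8 CPM without the large libraries) and a highest value of 97159 CPM. At least 1 range gene was found in 71 reference cells, or 51.4% (42.8 to 60%), which was 65 cells (50.4%) without the large libraries, and in 15 of 190 sorted cells, or 7.89% (4.49 to 12.7%).

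Fewer fragments were recovered from reference cells (median 504104) than from uninjured, 5 day and 14 day Neurog1-eGFP+ cells (848318, 1136942 and 1099226) or OMP-eGFP+ cells at 14 days (1347936), and about as many as from engrafted cells (501827). After each library was thinned to 100000 fragments, 68 reference cells (50%) still had a range gene found, against 52.2% of the same cells unthinned (48.8% and 51.2% without the large libraries). In OMP-eGFP+ cells at 14 days it was 5 of 42 (11.9%), against 14.3% unthinned. Thinning left out 2 reference, 1 uninjured Neurog1-eGFP+ and 3 engrafted cells.

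The number of range genes per cell was higher in the reference. No sorted cell had more than 1 range gene found, whereas 28 reference cells (25 without the large libraries) had 2 or more and 1 had 5. Over all Olfr genes the median was 1.5 receptors per cell in uninjured Neurog1-eGFP+ cells, 1 at 5 days, at 14 days and in engrafted cells, and 2 in OMP-eGFP+ cells at 14 days and in the reference. Within the reference it was 1.5 in run 1 (1 without the large libraries) and 3 in run 2. The mean number of range genes was 0.797 per reference cell (0.783 without the large libraries) and 0.0789 per sorted cell.

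The 2 reference runs differed in the same measures. A range gene was on top in 23 of 59 receptor cells of run 1 (39%, 26.5 to 52.6%) and 12 of 66 of run 2 (18.2%, 9.76 to 29.6%), and the range held 48.9% and 12.2% of Olfr CPM. Both runs lay above the pooled sorts. The shares of cells with any range gene found were close, at 52.9% and 50%, and the gap between the runs lay in how high the range genes stood. Without the 9 large libraries run 1 had 23 of 50 (46%) and 53%, and the whole reference 35 cells (30.2%) and 37.7%.

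In run 2 no cell with a range gene on top had only that receptor, while 11 of 23 such cells of run 1 did. Cells topped by another receptor differed the same way, with only 1 receptor in 7 of 54 cells of run 2 and 14 of 36 of run 1. In signal, the class II range ran opposite to the class I range: Olfr1000 to Olfr1300 held 9.23% of Olfr CPM in run 1 and 47.4% in run 2. What sets the runs apart in the labels is the run number only.

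Few receptors carried the range in each sort, and each was mostly the product of 1 cell. In uninjured Neurog1-eGFP+ cells Olfr689 (MOR40) reached 10566 CPM in 1 cell, 99.99% of that cell's Olfr CPM, and Olfr556 stood at 192.6 CPM below a class II receptor in another. At 5 days Olfr665 topped a cell at 208.4 CPM, and Olfr640 stood second in a cell, at 1027 CPM below Olfr142. At 14 days Olfr561 topped a cell at 3992 CPM, and Olfr610 (1913 CPM) and Olfr619 (94.7 CPM) were found below others. Each of the 3 Neurog1-eGFP+ groups thus had 1 cell with a range gene on top, too few to compare which genes were chosen.

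OMP-eGFP+ cells at 14 days had 3 cells topped by range genes: Olfr599 (MOR23) at 11708 CPM with no other receptor listed above 0, Olfr623 (MOR1) at 3232 CPM, and Olfr569 (MOR30) at 1581 CPM. Olfr653 and Olfr704 were found below other receptors, Olfr653 in 2 cells at 55.5 and 348.2 CPM. Among engrafted cells Olfr667 (MOR34) was the only receptor of its cell, at 3442 CPM, and Olfr691 was found in another at 299.3 CPM. None of the 7 top range genes was shared between 2 sorted groups. With so few cells this count is not a result about the range, and it was not compared with other receptors.

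By group, 2, 2 and 3 range genes were found in the Neurog1-eGFP+ groups, 5 in OMP-eGFP+ cells at 14 days and 2 in engrafted cells, and 28 and 26 in the reference runs. Over all genes, 44%, 43.2%, 38.2%, 41.9% and 37.4% were found in at least 1 cell of those sorts. For the other 989 Olfr genes the counts were 78, 69, 36, 56 and 39 in the sorts, and 84 and 85 in the 2 reference runs.

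In all, 53 range genes (41.7%) were found in at least 1 kept cell, against 33.6% of other Olfr genes. Of the 53, 39 were found only in the reference, 8 only in sorts and 6 in both. The small overlap was not particular to the range. Of the other Olfr genes, 15.4% were found in the reference and 23.3% in the sorts, so most of those found were likewise not shared. Another 74 range genes were never found, although each had some value above 0 in a kept library. At the edges of the range, Olfr543 and Olfr544 reached 19.7 and 17.8 CPM and Olfr705 22 CPM, and just outside it Olfr541 was found in 1 cell at 246.7 CPM while Olfr706 and Olfr707 reached 14.7 and 7.35 CPM.

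**Figure D3:**
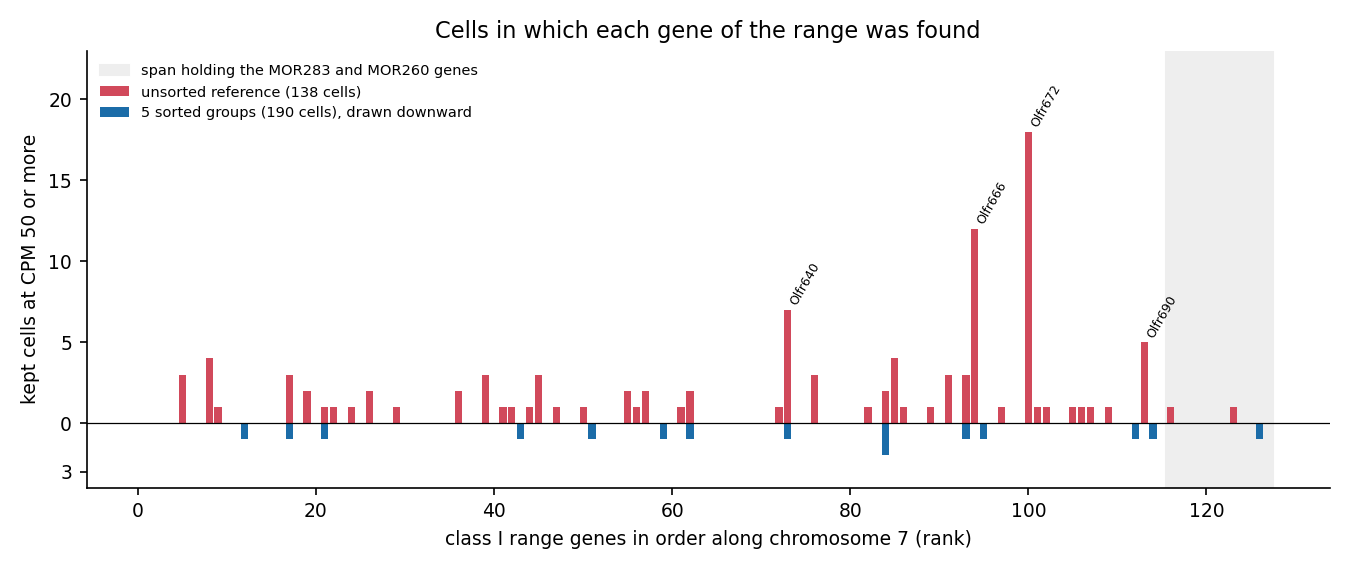
Kept cells in which each range gene was found (CPM 50 or more), in the genes' order along chromosome 7; bars upward are the reference, bars downward the 5 sorted groups (190 cells). Olfr672, found in 18 reference cells, and Olfr666, found in 12, stand out, and the grey span holds the MOR283 and MOR260 genes.

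Olfr672 (MOR32) was the most widespread range gene, found in 18 reference cells and in no sorted cell. Among the 14 of these that were not large libraries, it was on top in 6, at 372.2 to 97159 CPM with a median of 1597 CPM, and below another receptor in 8, at 51.6 to 866 CPM. Its highest cell alone holds 28.4% of the reference's range CPM. It was spread over both runs, with 6 of those cells in run 1 and 8 in run 2. It also had the highest median among range genes in the 9 large libraries, 52.2 FPKM.

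Olfr666 (MOR34) was found in 12 cells, all of run 2. It was on top in 3, at 382.97, 572 and 2174 CPM, and below another receptor in 9, at 56.6 to 633 CPM. Olfr552, never on top, was found in 4 cells, again all of run 2. Olfr640 (MOR13) went the other way, with 7 reference cells of run 1 (3 of them large libraries), none of run 2 and 1 sorted cell. Where Olfr640 was not on top, outside the large libraries, it stood at 870 to 2603 CPM. Olfr666 and its neighbour Olfr668 are 96.8% identical in coding sequence, so reads could have been split between them, and their separate values are uncertain.

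The other range genes on top in the reference were Olfr690 (4 cells), Olfr561 (3), Olfr601, Olfr623 and Olfr640 (2 each), and 13 genes with 1 cell each. Olfr643 reached 61468 CPM and Olfr615 25064 CPM. Olfr609 stood at 12537 CPM, Olfr679 at 9791 CPM and Olfr661 at 6263 CPM. Olfr676, Olfr617, Olfr683 and Olfr598 stood at 4862, 4574, 3835 and 2038 CPM, and Olfr575, Olfr594 and Olfr572 at 878, 762 and 552 CPM. Olfr701, the MOR283 gene, stood at 9873 CPM in a cell that also held Olfr578 at 6290 CPM. The reference cells topped by a range gene were thus spread over many receptors, with Olfr672 the most frequent.

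For Olfr561, 2 of the 3 reference cells were a pair of libraries whose profiles correlated at r = 0.943 with 85.3% of genes shared, against a median of 0.479 for the best match of a library. They carried Olfr561 at 461.5 and 881.6 CPM. Their fragment counts differed beyond sampling noise, so they were kept apart; counted as 1, the reference had 34 cells with a range gene on top (27.4%). For Olfr690, 2 of the 4 cells were also a pair more alike than most (r = 0.652, with 47.9% of genes shared). They carried Olfr690 at 1474 and 7949 CPM, Olfr723 at 1291 and 7424 CPM and Olfr672 at 51.6 and 257.4 CPM, and they were counted as 2 cells throughout.

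Of the families, MOR32 held 29.7% of the range's CPM over all kept cells (11 genes, 4 found, 8 cells on top) and MOR13 23.5% (6 genes, 2 found, 3 cells on top). MOR40 held 8.23% with 4 of 8 genes found, MOR19 6.64% and MOR31 5.13% with 6 of 10 found. MOR14, with 8 genes and 4 cells on top, held 2.2%. MOR32 owed its place to Olfr672 and MOR13 to Olfr643 and Olfr640, so the ranking of families follows single cells.

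**Figure D4:**
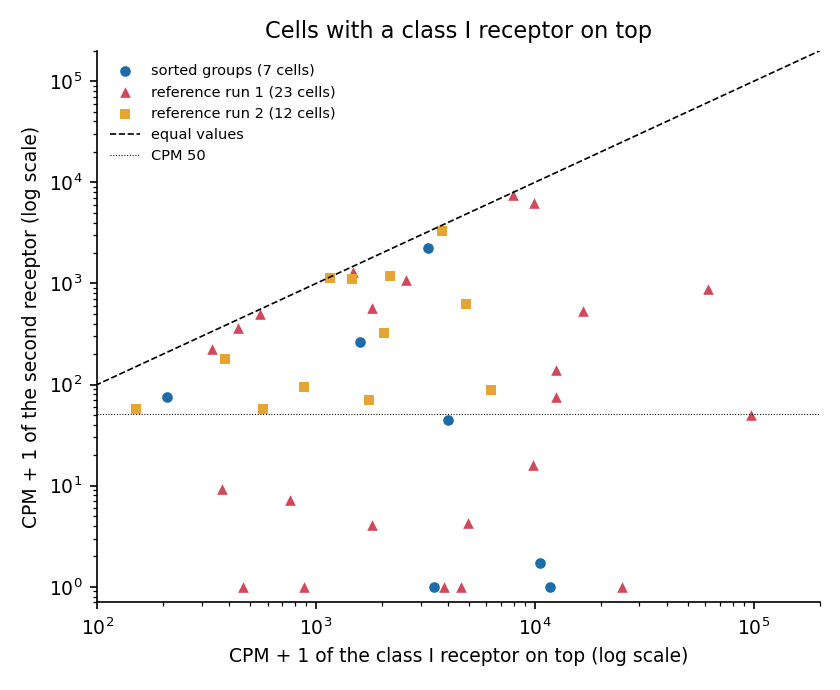
CPM + 1 of the top and the second receptor, on log scales, in the 42 kept cells topped by a range gene (7 sorted, 23 of run 1, 12 of run 2). The dotted line is the level at which a receptor counts as found; run 2 cells all have a second receptor above it, and several cells lie near the dashed line of equal values.

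Within cells topped by a range gene, 1 receptor usually dominated, but not always. The top receptor's median share of Olfr CPM was 98.9% in the 7 sorted cells and 88.7% in the 35 reference cells, with 90% or more in 4 and 17 of them. For cells topped by another receptor the medians were 96.3% in the sorts and 83.7% in the reference without the large libraries (81 cells). Only 1 receptor was found in 4 of 7 and 11 of 35 of the range-topped cells.

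The closest contests were in the reference. Olfr672 stood at 1158 CPM beside Olfr1079 at 1121 CPM in the closest one. Next came Olfr690 at 7949 CPM beside the class II gene Olfr723 at 7424 CPM, and Olfr572 at 552 CPM beside Olfr1408 at 502.5 CPM. In another cell Olfr690 stood at 3767 CPM beside Olfr665, a second range gene, at 3326 CPM. One cell held 5 range genes, led by Olfr561 at 2575 CPM with Olfr639 at 1070 CPM and Olfr570 at 1023 CPM, among 11 receptors. In the sorts the closest was Olfr623 at 3232 CPM beside Olfr1372-ps1 at 2222 CPM.

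Range genes found together were not near copies of each other as a rule. Without the large libraries there were 50 such pairs in 25 cells, all in the reference, 10 of them in the cell with 5 range genes. Their median identity was 59.2%, against 57.2% over all 7750 pairs of range genes. Of the 50 pairs, 2 were neighbours in the cluster. That share is larger than the share of neighbours among all pairs of range genes, but it rests on 2 pairs. The most alike were Olfr601 at 12459 CPM and Olfr605 at 138.6 CPM, 89.9% identical, where split reads are possible.

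Reference cells carried markers of a second cell type. Of the markers of sustentacular cells, the supporting cells that express Cyp2g1, a median of 5 were found (CPM 10 or more) in reference cells topped by a range gene and 6 in those topped by another receptor, without the large libraries. In the sorts both medians were 0. Mature neuron markers had medians of 8 and 9 in the same reference cells. Whether these markers play a part in the number of receptors per cell was not tested.

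**Figure D5:**
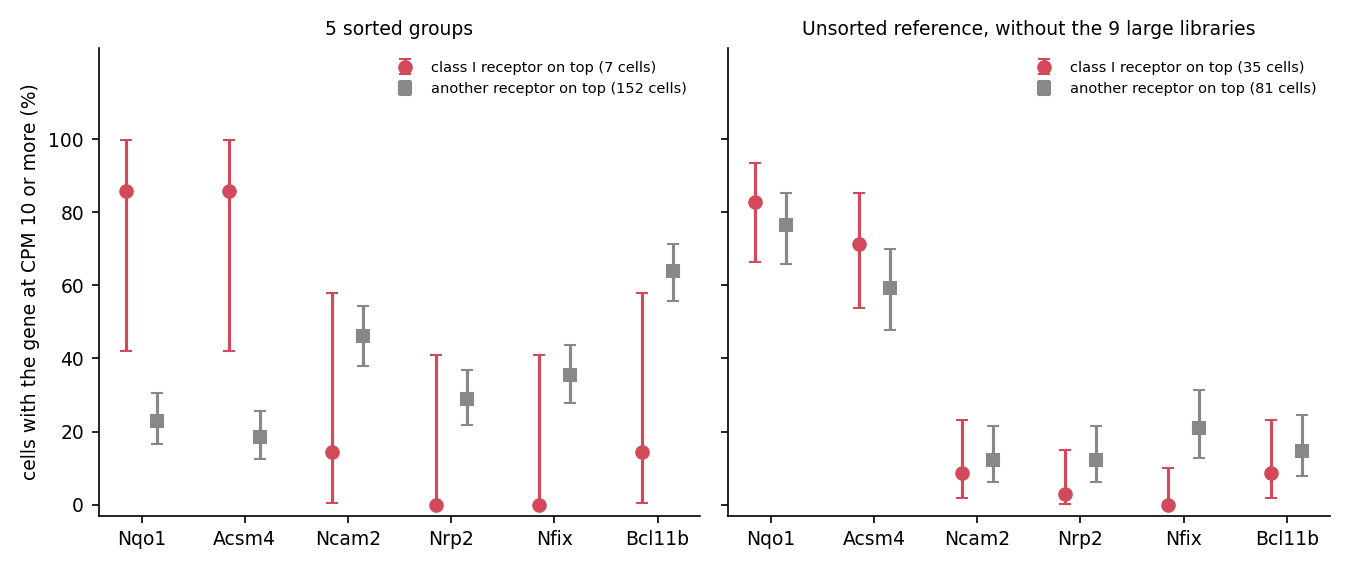
Percentage of cells in which Nqo1, Acsm4, Ncam2, Nrp2, Nfix and Bcl11b were found (CPM 10 or more), with exact 95% intervals, in cells topped by a range gene (red) and by another receptor (grey). In the sorts (left) Nqo1 and Acsm4 stand at 85.7% in range-topped cells against 23% and 18.4%; in the reference (right) both kinds of cell carry them.

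Sorted cells topped by a range gene carried the dorsal zone genes. Nqo1, a quinone reductase that marks the dorsal zone, was found in 6 of the 7 (85.7%, 42.1 to 99.6%) and in 35 sorted cells topped by another receptor (23%, 16.6 to 30.5%). Its CPM in the 7 was 6355 in the Olfr689 cell, 0 in the Olfr665 cell and 474 in the Olfr561 cell. It was 617, 2564 and 2016 in the Olfr599, Olfr623 and Olfr569 cells and 4064 in the Olfr667 cell. The Olfr665 cell, the one at 0, had the lowest receptor level of the 7.

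Acsm4, another dorsal gene, was likewise found in 6 of 7 (85.7%) against 28 other cells (18.4%, 12.6 to 25.5%), and the Olfr665 cell had it at 277.2 CPM. So each of the 7 cells had at least 1 of the pair. The split was seen within OMP-eGFP+ cells at 14 days, with Nqo1 in 3 of 3 against 11 of 38 cells and Acsm4 in 3 of 3 against 14 of 38, and within the pooled Neurog1-eGFP+ cells, with Nqo1 in 2 of 3 against 21 of 90.

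Ventral markers and the class II factor pointed the other way. Ncam2, an adhesion molecule of ventral neurons, was found in 1 of 7 range-topped sorted cells, at 48.6 CPM, and in 70 others (46.1%). By sort, 45 Neurog1-eGFP+ receptor cells had Ncam2, 0 of them topped by a range gene, and 26 OMP-eGFP+ ones, 1 of them topped by one. The genes that follow are given for the pool only. Bcl11b was found in 1 of 7, the Olfr623 cell at 731 CPM, and in 97 others (63.8%, 55.6 to 71.4%). Nrp2, an axon guidance receptor, and Nfix, a nuclear factor I protein, were found in none of the 7, which allows shares of up to 40.96% by the exact interval, and in 28.9% and 35.5% of the others. Nfib was found in 2 of 7 and 68.4% of the others and Nrp1, a guidance receptor, in 1 of 7 and 47.4%.

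The means of 7 cells were shifted for genes in general: 52.9% of the 9891 genes with a mean of 5 CPM or more in either kind of cell had a mean at least 2-fold lower in the range-topped sorted cells and 15% at least 2-fold higher. Of the 18 measured genes of the class and zone list, 12 were lower and 2 (Nqo1 and Acsm4) higher. The zone genes are therefore described by shares of cells. Lhx2 and Ebf1, factors that bind receptor enhancers, were found at like shares in both kinds of sorted cell (6 of 7 each, and 87.5% and 84.9% of others).

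The split was smaller in the reference, where most cells of both kinds carried dorsal genes. These cells also carried sustentacular markers (medians of 5 and 6), and which cell type their zone genes came from was not tested. Nqo1 was found in 29 of 35 range-topped cells (82.9%) and 62 of 81 others (76.5%) without the large libraries, and Acsm4 in 71.4% and 59.3%. Over all receptor cells Nqo1 was found in 80% of the reference (78.4% without the large libraries) and 25.8% of the sorts. Nfix was found in 0 of 35 and 17 of 81 cells, Nrp2 in 1 and 10, Ncam2 in 3 and 10, and Bcl11b in 3 and 12. On means, 5 of 19 genes of the class and zone list were at least 2-fold higher and 4 lower in range-topped cells, near the background of 25.1% and 29.6%.

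Taking only receptor cells with Nqo1 narrowed the gap between the pooled reference and the sorts, but the runs differed. A range gene was on top in 29 of 100 such reference cells (29%, 20.4 to 38.9%; 29 of 91, or 31.9%, without the large libraries) and in 6 of 41 sorted ones (14.6%, 5.57 to 29.2%), and the intervals overlap. By sort it was 1 of 8, 0 of 10 and 1 of 5 in the Neurog1-eGFP+ groups, 3 of 14 in OMP-eGFP+ cells at 14 days and 1 of 4 engrafted cells. Without Nqo1 it was 6 of 25 in the reference (24%, 9.36 to 45.1%) and 1 cell in the sorts (0.847%, 0.0215 to 4.63%). In run 1 it was 18 of 47 cells with Nqo1 (38.3%) and 5 of 12 without (41.7%). In run 2 it was 11 of 53 (20.8%) and 1 of 13 (7.69%). Without the large libraries, run 1 cells with Nqo1 stood at 47.4% (31 to 64.2%), an interval that does not overlap that of the sorts. The share of Nqo1 cells thus differed between reference and sorts together with the share of range-topped cells. Which part of the tissue each suspension came from was not tested, nor was which cell type gave the Nqo1 of a reference library.

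Another dorsal receptor family followed the same groups. Trace amine-associated receptors (15 Taar genes) were found in 9 reference cells, with a mean summed level of 186.9 CPM (9 cells and 194.1 CPM without the large libraries), and in none of the 190 sorted cells. Vmn1r, Vmn2r and Ms4a genes were found in 2, 5 and 3 reference cells and in 3, 9 and 0 sorted cells, and Fpr and Gucy2d in none.

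In the reference, genes that serve receptors of either class showed medians close to that of all genes. Of the 12 genes of receptor feedback and trafficking, 1 was at least 2-fold higher and 2 lower in range-topped reference cells without the large libraries, and of the 10 measured transduction genes 1 was higher and 1 lower. Over all genes 25.1% were higher and 29.6% lower. The median log2 ratios of the 2 lists were -0.07 and -0.20, beside -0.06 over all 10332 genes. Rtp1, which carries receptors to the surface, was found in 62.9% and 65.4% of the cells, and Atf5, the factor of the feedback signal, in 57.1% and 60.5%.

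In the pooled sorts the median log2 ratios of the same lists were -0.15 and 0.23, beside -1.24 over all genes. Within OMP-eGFP+ cells they were -0.24 and -0.60, beside -1.49, so the transduction median changed sign. Both lists stood above the general shift in the means, but their direction in the pool mixes the sorts. By shares of cells, Rtp1 was found in 5 of 7 range-topped cells and 74.3% of others, Atf5 in 6 of 7 and 84.9%, and Gnal, the olfactory G protein, in 7 of 7 and 82.9%. Omp was found in 5 of 7 and 67.1%. Range-topped cells thus had these genes about as often as other receptor cells. Over the list of mature neuron markers, the median number found was 9 in the range-topped sorted cells and 6 in the others. These pooled medians mix the sorts, as 4 of the 7 cells were OMP-eGFP+. Within OMP-eGFP+ cells the medians were 9.5 and 9, and within Neurog1-eGFP+ cells 2 and 4. The Olfr561 and Olfr665 cells of the Neurog1-eGFP+ groups were the exceptions for Omp, at 0 and 2.02 CPM, with 10 immature neuron markers found in each.

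The 9 large libraries showed the range at a different grain. They held low levels of many receptors: every range gene had a value above 0 in at least 1 of them, 12 in all 9, and the top receptor stood at only 59.2 to 190 CPM. The range held 7.85 to 17.1% of their Olfr CPM, around its 11.4% of entries. The 53 range genes found in another kept library had a median level of 8.25 FPKM over these libraries (their medians ran from 0 to 52.2 FPKM) and the 74 others 3.07 FPKM. Olfr549 (45.6 FPKM), Olfr594 (36.6 FPKM) and Olfr689 (24.1 FPKM) followed Olfr672. The files do not show how many cells went into a library.

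Class I genes outside the number range raised the count of class I cells in 2 sorts. With class I defined by MOR family, the cells with a class I gene on top went from 1 to 2 of 38 in uninjured Neurog1-eGFP+ cells (5.26%) and from 1 to 3 of 36 at 5 days (8.33%), while the counts of the other groups did not change. The reference stayed at 35 because a cell topped by Olfr78 came in and the Olfr701 cell dropped out. Olfr78, also known from the carotid body, was found in 3 cells, on top in 2, with a highest value of 6799 CPM; 2 cells were of the reference and 1 of the uninjured Neurog1-eGFP+ group. Olfr66 topped 2 cells at 5 days after bulbectomy, which were one of the near-identical pairs (r = 0.960). Olfr243 was found in 1 cell. The other 8, Olfr33 among them, were never found, and neither was Olfr32. Olfr558, a range gene also known from blood vessels, was not found in any cell.

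The window upstream of the start was searched for a few short patterns. RefSeq's windows of 250 bases before the annotated start (GRCm38.p6) were at hand for most range genes, and both strands were searched for 3 letter patterns. TAATTA, a homeodomain core, was in 13.8% of them, in 18.8% of windows of other Olfr genes and in 4.43% of all genes' windows. TAATGA, a near variant, was in 25.7%, 25.3% and 8.18%, and CCCNNGGG, the Ebf core, in 3.67%, 2.58% and 12%. In 74.3% of the range's windows the annotated gene starts at the coding ATG, so these windows may not be the promoters. Among the windows that start elsewhere (28 of range genes), TAATTA was in 7.14%, against 19% for other Olfr genes, TAATGA in 35.7% and 31.2%, and CCCNNGGG in 7.14% and 7.24%.

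Olfr601, on top in 2 reference cells, is shown as an example whose annotation starts upstream of the coding sequence. Its window on the minus strand at chr7:103359214-103359463 holds TAATGA, in capitals:

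Olfr601: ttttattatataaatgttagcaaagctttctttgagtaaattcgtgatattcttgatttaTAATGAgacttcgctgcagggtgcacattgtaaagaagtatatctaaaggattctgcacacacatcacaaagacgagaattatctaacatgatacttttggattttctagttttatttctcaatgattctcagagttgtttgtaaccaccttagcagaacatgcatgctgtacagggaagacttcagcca

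Near copies limit what single values mean for part of the range. The nearest receptor was at least 95% identical for 17 class I range genes and at least 90% for 28. Among those named above, Olfr596 is 99.5% identical to Olfr603, Olfr679 to Olfr681 98.5%, and Olfr598 to Olfr597 98%; Olfr666 is given above. Olfr689, the one range gene on top in uninjured Neurog1-eGFP+ cells, is 94% identical to Olfr688, and Olfr544 is 91.2% identical to Olfr545. Of the MOR283 genes named, Olfr704 is 94% identical to Olfr694. Olfr623 is 92.7% identical to Olfr65, a class I gene outside the range.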

How the data were processed

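The authors deposited a table of signal (fragments per gene, brought by the authors to nearly equal library totals) and a table of FPKM. Tools named in the submitters' processing notes are STAR (2.5.2a), Cufflinks (2.2.1), Cuffnorm and FastQC, with build mm9; the annotation is not stated there. The range holds 127 genes (112 of class I by MOR family), numbered 543 to 705. Of 469 libraries 328 were kept (190 sorted, 138 reference), with 159 sorted and 125 reference receptor cells, and 141 were left out. The design had assumed counts in the first table; it was used as scaled signal, so no count model was run. Signal was turned into CPM after 27 entries with names altered to dates (0.418% of the signal) were dropped, leaving 23281. The value of 1 fragment was recovered per library (tolerance 0.02; a median of 98.4% of values came out whole), and on simulated data the depth was recovered within 1% in 328 of 328 libraries (23281 genes). Group ratios are log2 of mean CPM + 1, and folds understate low genes. FPKM is used only where named. Marker genes were called found at CPM 10.

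Genes named are every range gene on top in a kept cell, the 5 highest by mean CPM per group, the 10 found in most cells, the first and last numbers, Olfr78, Olfr558, Olfr33 and Olfr32, plus fixed lists; others (such as Olfr578) were named after their values were seen. The members and lists were chosen with earlier results of these data known. Sequence identity was computed with edlib 1.3.9.post1, in Python 3.11.15 (pandas 2.3.3, numpy 2.4.6, scipy 1.17.1). No doublet caller was run.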

Additional observations from a re-analysis of the deposited data

Results flagged for a closer look

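The libraries with fewer than 1000 genes entered none of the comparisons, but some held range genes. A range gene with at least 3 recovered fragments was the top receptor in 13 reference libraries of this kind, among 41 with a receptor (31.7%, 18.1 to 48.1%), with Olfr666 in 3 of them. In the engrafted group it was 1 library, with Olfr691, among 21 with a receptor (4.76%, 0.120 to 23.8%). In the other sorts it was 0 of 10, 2, 1 and 5 libraries. The median number of genes in these libraries was 717.5 in the reference and 86.5 in the engrafted group.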

How the results depend on the processing

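The share of receptor cells topped by a range gene and the range's share of Olfr CPM were recomputed per group under other gene limits (500 or 2000), the FPKM table, other limits for a found receptor (CPM 10 or 200), only cells with Omp at CPM 50 or more, equal weights for cells, and without the highest cell or the large libraries. Chosen after seeing the data were class I by MOR family, near-identical pairs counted once, and libraries thinned to 100000 fragments. Each value was set against the main value's 95% binomial interval, and 44 of 47 values of the signal share and 49 of 53 of the cell share lay inside. These counts do not measure stability in the sorts, where the intervals are wide. For the signal share the interval treats a share of CPM as if it were a share of cells. In engrafted cells it ran from 6.1e-05 to 16.2%, so a fall from 1.37 to 0.111% without the highest cell still lay inside. The reference cell share ran from 18.2 to 39% and the signal share from 12.2 to 48.9%, the ends being the runs alone: run 1 gave 39% of cells and 48.9% of signal, run 2 18.2% and 12.2%; the cause was not tested. Among cells with Omp, the cell share was 0% at 5 days (0 of 9) and 0% at 14 days (0 of 5) in Neurog1-eGFP+ cells, where fewer cells remained. Without its highest cell the uninjured Neurog1-eGFP+ signal share was 0.119%. By MOR family the cell share at 5 days was 8.33% (3 of 36, 2 of them the near-identical Olfr66 pair) in place of 2.78%, and in uninjured cells 5.26% in place of 2.63%. The signal share at 5 days fell to 0.111% with at least 2000 genes and was 2.85% with equal weights. The planned naming by current families 51 to 56 was not run, as the tables hold older names only. No paired analysis was possible because the labels give no shared replicate numbers between groups and no test was run. Depth limits a found receptor to about 25 fragments in the shallower groups.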
